A study of Mus musculus with 89 samples.

Results

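One bacterial sequence variant in the fecal microbiome of mice after experimental brain injury was named Akkermansia, and among the variants with a name it was also the only one of the phylum Verrucomicrobiota. It was picked by its genus name in the deposited taxonomy table, so 1 variant of the 434 named there, and of the 4065 in the count table, is described. A sequence variant is a distinct 16s rRNA gene sequence inferred from amplicon reads, and its level is given here as the percentage of all reads of a fecal sample. The variant is 420 bases long, and its closest relative among the other named variants was 78.1% identical to it.

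Akkermansia is an anaerobic genus that lives in the mucus layer of the intestine and degrades mucin glycans, releasing acetate and propionate. Its best known species in the gut of mice and humans is Akkermansia muciniphila. The 16s region that was read names the genus but does not settle the species, so the variant is called by its genus.

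The samples were feces of young adult male C57BL/6J mice that underwent craniotomy alone (sham, 6 mice) or controlled cortical impact (CCI, 7 mice), a model of traumatic brain injury in which a piston strikes the exposed dura. According to the study's methods, all of these mice had their bowel flushed with polyethylene glycol before surgery. They then received cecal contents of donor mice, repeated weekly up to the week before surgery, while soiled bedding was shared between cages. After surgery they were housed by injury condition, and bedding was still mixed within each injury group. The tests below treat animals as independent units, and the part of shared bedding in the levels was not tested. Feces were collected before surgery (pre-injury) and at 1, 2, 7 and 28 d after it. Collections at 3 and 14 d were not analysed here. The columns of the count table carry an animal number and a day but no injury group, so sham and CCI animals are pooled throughout, and no comparison of sham with CCI was made. There was no unoperated group, and the effects of surgery, age, time and the end of the inoculations cannot be told apart. Cage, surgery day and extraction batch were not tied to the columns, and their part in the results was not tested.

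The 65 columns used are 13 animals, with numbers between 149 and 162, at 5 collections. They held between 10266 and 201686 reads, with a median of 79026. Reads of the Akkermansia variant numbered 45641 of 5561696, or 0.821%, which ranked it 21st by summed reads among 3217 variants with any read in these columns. It was found in 60 columns and had 0 reads in 5. Its level was at least 0.1% in 41 columns and at least 1% in 13, around a median of 0.209% and up to 10.7%. It was the most abundant variant of all in 1 column and among the 10 most abundant in 7. Across columns its level had a Spearman rank correlation of -0.28 with the total reads (65 columns, 5 from each animal, given as a description).

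The Akkermansia variant was detected in every animal before surgery, at levels that already spanned 0.0104% to 10.7%, with a median of 0.524%. At 1 d the median was 0.234%, with a range from 0 to 10.2%. At 2 d the levels ran from 0.00493% to 4.61% around a median of 0.0908%. The medians thus were lower at both early collections, while the ranges overlapped. At 7 d the levels lay between 0.00233% and 5.08% with a median of 0.136%. At 28 d the median was 0.0420%, the lowest of the 5, and the levels reached from 0 to 4.44%. In order of their medians, the collections were pre-injury, 1 d, 7 d, 2 d and 28 d, and the range of each overlapped that of its neighbours in this order. The mean over animals followed another order, from 1.29% ± 2.84 (SD, n = 13) before surgery to 1.44% ± 3.02 at 1 d, 0.813% ± 1.60 at 2 d, 0.816% ± 1.45 at 7 d and 0.570% ± 1.22 at 28 d. A single animal set much of each mean. Animal 151 supplied 63.6% of the summed percentages before surgery, 54.7% at 1 d and 47.9% at 7 d, animal 149 supplied 43.6% at 2 d, and animal 161 supplied 59.9% at 28 d.

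**Figure D1:**
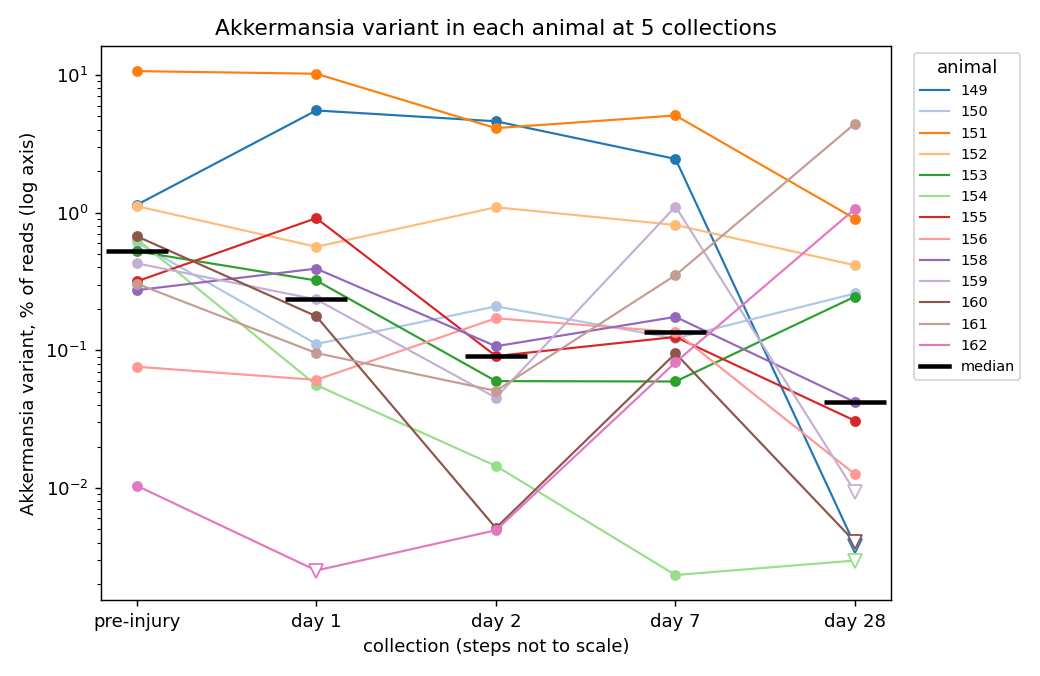
Percentage of reads given by the Akkermansia variant (log axis) in each of 13 animals, sham and CCI pooled, at 5 collections. Lines join the columns of 1 animal, black bars are medians, and open triangles mark columns with 0 reads, placed at the level that 3 reads would give. The medians go from 0.524% before surgery to 0.0420% at 28 d, and animals 161 and 162 run upward to 4.44% and 1.07% at the last collection.

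Animals 151 and 149 carried the highest levels through the first week. In animal 151 the variant made up 10.7% of reads before surgery (exact 95% binomial interval 10.4 to 10.9), 10.2% at 1 d, 4.11% at 2 d, 5.08% at 7 d and 0.902% at 28 d. In animal 149 the values were 1.14%, 5.53%, 4.61% and 2.46% over the first 4 collections, followed by 0 of 78713 reads at 28 d, which allows a level of up to 0.00381%. Limits for 0 reads are given here and below as the level of 3 reads, and the upper end of the two-sided exact 95% interval for the same column was 0.00469%. Animal 149 was the only one above its own pre-injury level at 1, 2 and 7 d. Animal 152 stayed within a narrow band, with 1.12%, 0.565%, 1.09%, 0.814% and 0.414% in order of collection. Intervals and limits of this kind cover counting error only, since reads are amplified copies and not independent molecules.

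A further 5 animals joined animal 151 and all were lower than before surgery at all 4 later collections: 150, 152, 153, 154 and 160. In animal 154 the level went from 0.644% before surgery to 0.0559%, 0.0145% and 0.00233%, the last resting on 3 reads. Animal 154 then had 0 of 100981 reads at 28 d, which allows up to 0.00297%. Animal 160 went from 0.674% to 0.177% at 1 d and 0.00512% at 2 d (5 reads, exact 95% binomial interval 0.00166 to 0.0119), then 0.0950% at 7 d and 0 of 74279 reads at 28 d, which allows up to 0.00404%. Both animals thus ended below detection after starting above the pre-injury median. In animal 150 the levels were 0.608%, 0.111%, 0.209%, 0.122% and 0.259%. Animal 153 had 0.524%, 0.321%, 0.0597%, 0.0593% and 0.246%, of which the value at 1 d came from the shallowest column, with 33 of 10266 reads (interval 0.221 to 0.451). In both of these animals the level at 28 d was above that at 7 d.

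Animals 155, 158 and 159 were lower than before surgery at 3 of the 4 later collections. Animal 155 had 0.316%, 0.912%, 0.0908%, 0.125% and 0.0307%, and animal 158 had 0.273%, 0.392%, 0.107%, 0.175% and 0.0420%, so that both were highest at 1 d and lowest at 28 d. Animal 159 had 0.429%, 0.234%, 0.0452% and 1.11%, and then 0 of 32134 reads, which allows up to 0.00934%. Animal 156 had 0.0760%, 0.0610%, 0.171%, 0.136% and 0.0126%, which was 2.25-fold and 1.79-fold above its pre-injury level at 2 and 7 d and below the median of the animals at the other 3 collections.

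Animals 161 and 162 took the opposite course at the end. The level in animal 161 was 0.305% before surgery, 0.0955% at 1 d, 0.0508% at 2 d, 0.351% at 7 d and 4.44% at 28 d, where the variant was the fourth most abundant of all. Animal 162 began as the lowest of all animals, with 15 of 144387 reads (0.0104%), had 0 of 119380 reads at 1 d, which allows up to 0.00251%, and then reached 0.00493%, 0.0818% and 1.07%. Against their own pre-injury columns, the level at 28 d was 14.6-fold higher in animal 161 and 103-fold higher in animal 162. The remaining 11 animals were all lower at 28 d than before surgery, by over 2-fold in 11 and by over 10-fold in 6.

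By collection, 6 animals had their highest level before surgery, 3 at 1 d, 1 at 2 d, 1 at 7 d and 2 at 28 d. The lowest level was at 28 d in 9 animals and before surgery in 0.

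Within-animal change was measured as the difference in log2(percent + 0.001) from the pre-injury column and tested with a two-sided exact sign-flip permutation test over the 13 animals, with Benjamini-Hochberg adjustment over the 4 later collections. Because of the added 0.001, these differences understate changes of low levels, and values for columns with 0 reads depend on it. At 2 d the variant fell by 1.92 on the log2 scale (SD 2.41, lower in 11 of 13 animals, over 2-fold lower in 10), p = 0.0122 and adjusted p = 0.0488. Mean shifts from -3.37 to -0.48 were not rejected by that test at the 0.05 level. This range and those given below for the other collections are without adjustment over collections. The adjusted p lay just under the threshold and did not stay there under many settings. It was 0.168 with the columns treated as unpaired, without the animal as a block, 0.126 on centred log ratios and 0.240 for the median change (-1.54). It ranged from 0.0508 to 0.0977, with mean changes from -2.07 to -1.51, when any 1 of animals 150, 151, 152, 153, 154, 155, 158, 159 or 160 was left out. On untransformed percentages the mean change at 2 d was -0.478 percentage points (adjusted p = 0.684, exact sign-flip permutation test).

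At 28 d the mean change was -3.31 (SD 5.10, lower in 11 of 13 animals), with p = 0.0403 and adjusted p = 0.0806 in the same exact sign-flip permutation test. Shifts from -6.39 to -0.20 were not rejected before adjustment. That range leaves out 0, although the change did not pass after adjustment. The median change was -2.67. The size of the mean depended on where the 4 columns with 0 reads were placed, since the added 0.001 puts them below the limits given above. It was -2.64 (adjusted p = 0.102) with such columns set to 3 reads, -2.27 (adjusted p = 0.103) with 0.01 added and -4.33 (adjusted p = 0.0771) with 0.0001 added. The 2 animals with higher levels weighed heavily on this test, since the mean change was -3.91 (adjusted p = 0.0469) without animal 161 and -4.13 (adjusted p = 0.0313) without animal 162. Other animals moved it the other way. Leaving out any 1 of animals 149, 154, 159 or 160, all with 0 reads at 28 d, gave mean changes from -2.86 to -2.74. The adjusted p of the sign-flip test was then between 0.107 and 0.160. At 1 d the mean change was -0.90 (SD 1.75, lower in 10 animals), adjusted p = 0.120, with shifts from -1.95 to 0.17 not rejected. At 7 d it was -0.998 (SD 2.64, lower in 8 animals), adjusted p = 0.203, with shifts from -2.60 to 0.49 not rejected. Without animal 154 the mean change at 7 d was -0.447 (adjusted p = 0.406). Neither test excluded a shift of 0, and neither showed that the level stayed as it was.

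**Figure D2:**
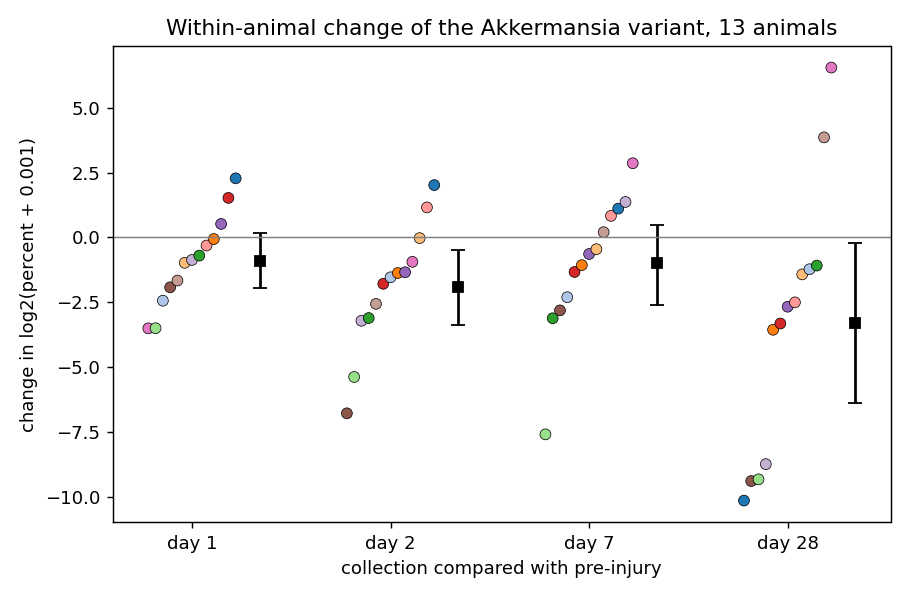
Change of the Akkermansia variant from the pre-injury column of the same animal, in log2(percent + 0.001), at 4 later collections. Each circle is 1 of 13 animals in the colours of the plot of levels by animal, and squares are means. Bars span the mean shifts not rejected by the two-sided exact sign-flip test at the 0.05 level, without adjustment over collections. At 2 d the mean is -1.92. The bars at 2 d and 28 d lie below 0, but only the change at 2 d passed after adjustment. At 28 d 11 animals lie below 0 and 2 above.

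Over all 5 collections together, with days permuted within each animal, the time means differed by more than permuted days gave (100000 permutations, p = 0.0275). That p was 0.110 with columns treated as unpaired and 0.0520 when columns with 0 reads were set to 3 reads. It was between 0.0511 and 0.124 when any 1 of animals 149, 151, 154, 155, 158, 159 or 160 was left out. Presence, meaning at least 1 read, changed in few animals. All 13 had the variant before surgery, and it had 0 reads in 1 animal at 1 d and in 4 at 28 d (animals 149, 154, 159 and 160). No animal gained it. The loss in 4 of 13 animals gave p = 0.125 in the two-sided exact McNemar test (adjusted p = 0.5), the smallest p that 4 changes can give.

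Animals differed from each other more than permutation of animal numbers within each collection gave, with a variance of the animal means of 4.80 on the log2 scale squared (100000 permutations, upper tail, p = 0.00104). Animal 151 contributed much of it. Without that animal the variance was 2.93 and p = 0.0561. With collection means removed, the SD between animals was 1.84 on the log2 scale and the SD within an animal 2.64, so that 32.7% of the variance lay between animals. The order of the animals was partly kept through the first week and not at the end. The Spearman rank correlation with the pre-injury levels over 13 animals was 0.588 at 1 d, 0.478 at 2 d, 0.341 at 7 d and -0.215 at 28 d, given as descriptions. Animals 151 and 149 ranked first and second at the first 4 collections, in that order except at 2 d, whereas animals 161 and 162 ranked first and second at 28 d.

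The variant was then set among all variants by a count model, edgeR's quasi-likelihood test with the animal as a block and Benjamini-Hochberg adjustment over the 323 variants that passed the filter on low counts, all of them named in the taxonomy table. SEs of edgeR fold changes, here and below, are the size of the fold change divided by the square root of the test's F statistic. They were not estimated by the fit itself. The Akkermansia variant was not called at any collection. Its log2 fold change was -0.93 ± 1.01 (SE) at 1 d (edgeR adjusted p = 0.997), -1.96 ± 1.07 at 2 d (p = 0.0730, adjusted p = 0.985), -1.42 ± 1.07 at 7 d (adjusted p = 0.772) and -1.14 ± 1.33 at 28 d (adjusted p = 0.748). Single animals and the block moved these values by over 1.5 times. Without the animal as a block the fold change was -0.09 at 1 d and -1.04 at 2 d. Without animal 154 it was -0.50 at 1 d, -0.68 at 7 d and -0.47 at 28 d. At 28 d it was also -0.45 without animal 160, and -2.35 without either animal 161 or animal 162 (adjusted p = 0.441 and 0.367). Of all 323 variants, 55 had a lower fold change than Akkermansia at 1 d, 22 at 2 d, 56 at 7 d and 45 at 28 d. By the size of its p Akkermansia ranked 73rd at 1 d, 20th at 2 d, 73rd at 7 d and 171st at 28 d. At 1, 2 and 7 d 0% of variants were called in either direction, although 2, 14 and 26 variants had an unadjusted p under 0.05, and DESeq2 called 1, 4 and 10. At 28 d 2.48% of variants were called higher and 0.31% lower, 9 variants in all, against 36 called by DESeq2, and 0 by edgeR without the animal as a block. The median log2 fold change over all variants was -0.12, 0.00, -0.34 and 0.24 at the 4 later collections. Scaling to total reads in place of TMM moved the one at 28 d to 0.05. Relative to the median of all variants the Akkermansia variant was therefore lower at each later collection, by an amount that stayed within about its own SE at 1, 7 and 28 d and did not pass the test at any.

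**Figure D3:**
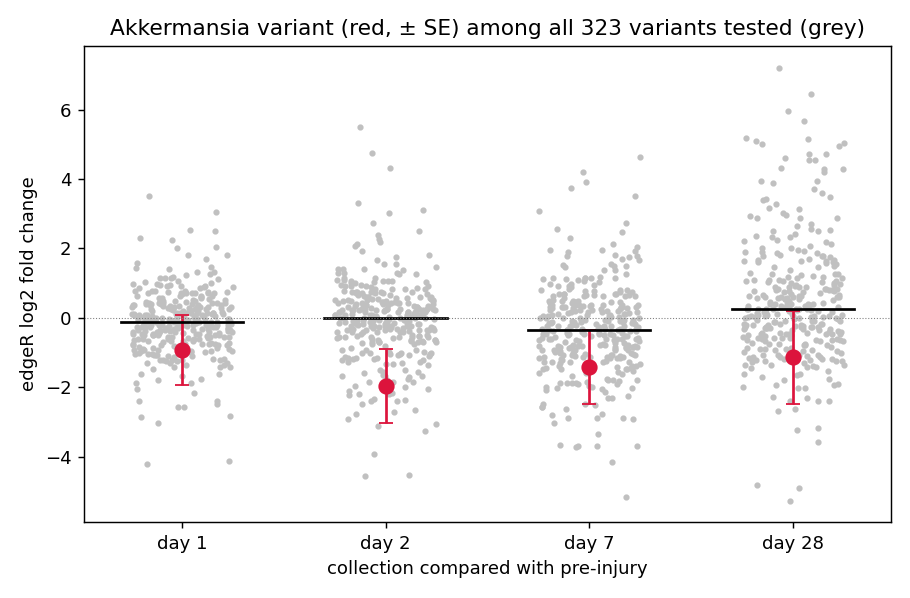
edgeR log2 fold change from pre-injury for each of the 323 variants tested (grey points) at 4 later collections, with the Akkermansia variant in red (bars are its SE) and the median of all variants as a black line. The Akkermansia variant lies below 0 at each collection, at -0.93, -1.96, -1.42 and -1.14, inside the cloud of other variants. Its SE was calculated from the fold change and the F statistic of the test.

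Genera known to use mucin glycans were few. Of 9 listed genera 4 were found (Akkermansia, Bacteroides, Bifidobacterium and Muribaculum), with 5 variants in all, that of Akkermansia included, every one tested and 0 called at any collection by edgeR. The median log2 fold changes of these 5, Akkermansia again included, were 0.09, 0.22, 0.30 and 0.35 at 1, 2, 7 and 28 d, against -0.12, 0.00, -0.34 and 0.24 over all variants. Bifidobacterium, a fermenter of milk and mucin sugars, had a fold change at 2 d close to that of Akkermansia, -1.85 ± 1.08 (edgeR p = 0.0906, adjusted p = 0.985), and -0.87, 0.35 and 0.84 at 1, 7 and 28 d, the last 2 opposite in sign to Akkermansia. Its median level was 3.61% before surgery, 0.0883% at 2 d and 5.55% at 7 d. Bacteroides, a glycan degrader of the colon, had fold changes of 0.30, 0.22, 0.38 and -0.23, with a median level of 2.97% before surgery. Both variants of Muribaculum, a genus of the common mouse gut family Muribaculaceae, had fold changes above 0 at each collection, 0.09, 0.25, 0.27 and 0.35 in one and 0.13, 0.31, 0.30 and 0.40 in the other. Of 12 genera listed for butyrate production 7 were found, and 1 of their 59 tested variants was called, as higher, at 28 d, which is 1.69% against the 2.48% of all variants called higher then. This was a member of the Lachnospiraceae NK4A136 group (log2 fold change 6.44 ± 1.62, edgeR adjusted p = 0.0125), with 0 reads in 8 of 13 columns before surgery and in 4 at 28 d. Its highest level was 2.45% before surgery and 0.495% at 28 d, so the levels did not all lie higher at the later collection.

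The levels of 124 named variants with reads in at least 75% of columns were ranked by their Spearman correlation with Akkermansia over the 65 columns, as a description in which columns share animals and percentages of a column sum to a fixed total. No variant followed it closely. The highest values were 0.33 for a Bacteroides variant, 0.30 for a Colidextribacter variant, 0.30 for a Firmicutes variant with no family name, 0.26 for a Muribaculaceae variant and 0.24 for Lachnospiraceae UCG-006. The lowest were all Lachnospiraceae, at -0.54 for a variant of the genus A2 and between -0.45 and -0.41 for 4 variants with no genus name. The median over all 124 was -0.10, and 36 were above 0. With correlations taken within each collection and averaged over the 5, the Muribaculaceae variant came first at 0.39, ahead of Bacteroides at 0.33. At the low end the A2 variant stayed last at -0.51, and variants of the Lachnospiraceae NK4A136 group, at -0.44 and -0.41, were lower than 2 of the variants with no genus name (-0.32 and -0.31).

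At the level of phyla, Verrucomicrobiota is, among named variants, this variant alone, and its spread between animals before surgery, from 0.0104% to 10.7%, may be set beside that of the large phyla. Firmicutes, with 387 named variants, ranged from 42.8% to 63.96% before surgery (median 55.9%), and Bacteroidota, with 22, from 29.8% to 45.9% (median 39.3%). At 28 d the medians of Firmicutes and Bacteroidota were 55.4% and 36.9%. The smaller phyla ranged before surgery from 0.852% to 9.66% (Actinobacteriota, 18 named variants) and from 0.0112% to 0.392% (Proteobacteria, 3). These phyla are sums over several variants. The single Bifidobacterium variant ranged from 0.00372% to 9.26% before surgery, so a wide spread between animals was not particular to Akkermansia.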

How the data were processed

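Fecal DNA of the labelled samples was amplified over the V3-V4 region of the 16s rRNA gene and sequenced by the authors. Per the study's methods, reads were trimmed by 13 bases at the start and truncated by 10 at the end, joined, denoised to sequence variants with DADA2 and cleared of chimeras. The deposited counts are whole reads per variant and column without normalization. The deposited taxonomy table gives names from SILVA (release 132 in the methods, 138 in the design text). The deposited sample table was not used. Of 91 columns, 26 were not used, because at 3 and 14 d 13 columns stood against 12 labelled samples each. Animal numbers come from the column names. Same-numbered columns are 1 animal, and deviations from the collection means correlated at 0.865, 0.637, 0.446 and -0.0903 between pre-injury and 1, 2, 7 and 28 d (n = 13).

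Levels are percentages of the column total, tested as log2(percent + 0.001) with exact sign-flips (8192) or 100000 permutations. Counts were fitted with edgeR 4.0.16 in R 4.3.3 (TMM, filterByExpr, animal and collection as factors, called at adjusted p under 0.05), with DESeq2 1.42.0 as an alternative. Median depth per collection was between 68333 and 89486 reads. Alternatives were other pseudocounts and scales, thinning to 10266 reads, other denominators, other filters, no block, and each animal left out. Identity was taken from global alignments with edlib 1.3.9.post1. Beside the Akkermansia variant, the 5 named variants most and the 5 least correlated with it are named, with list genera that had a called variant. Bacteroides, Bifidobacterium, the variants called at 28 d and the single animals described were picked with their values in view. The Akkermansia variant, the lists and the tests were chosen with earlier results of these data known. Scripts were tested on simulated data. Python 3.11.15, NumPy 2.4.6, pandas 2.3.3 and SciPy 1.17.1 were used. No sequence is printed.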

Additional observations from a re-analysis of the deposited data

Results flagged for a closer look

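Reads close to the Akkermansia variant also lay outside the named variants. Among variants without a name, 12 were at least 90% identical to it, and 6 of them had reads in the columns used, 19, 5, 4, 3, 3 and 2 reads, each in 1 column. These are 36 reads in all, or 0.0789% of the Akkermansia reads, and were noted as signal outside the named variants. Of the 12 variants 1 was at least 97% identical, with 0 reads in these columns. They were not added to the level of the variant.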

How the results depend on the processing

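Of 371 alternatives for 18 results, 22 left out no column or variant and so could change nothing (a minimum of 10000 reads, only named variants). Of the other 349, 309 gave a test result of the same direction and on the same side of the threshold, or a count of called variants within 1.5 times the one reported. For presence, only the side of the threshold was kept in some, since the number of animals gained or lost differed by up to 3. The pooled count includes presence tests and count fits far from the threshold, so it does not show that the results that passed were stable. With each animal left out, the change at 2 d no longer passed in 9 of 13 cases, and the test over all collections in 7 of 13. On untransformed percentages the change at 1 d turned to 0.145 percentage points (p = 0.969, exact sign-flip permutation test) and that at 2 d was -0.478. The cause was not tested. The fall at 2 d no longer passed as a median (-1.54), with a pseudocount of 0.01 (-1.68, adjusted p = 0.0586), on centred log ratios (-1.91) or without the replicate block (-1.92, adjusted p = 0.168). With each animal left out it ranged from -2.24 to -1.51, that at 7 d from -1.32 to -0.45 and that at 28 d from -4.13 to -2.74. The test over all collections (summed squares of the time means, 6.29) no longer passed without the block (6.29, p = 0.110), on percentages (0.526, p = 0.588), on centred log ratios (6.06, p = 0.0873) or with 0 reads set to 3, chosen after seeing the data (4.25, p = 0.0520). With animals left out it ranged from 4.38 to 10.1, and the variance between animals from 2.93 to 5.23. Called variants by edgeR numbered 0, 0, 0 and 9. DESeq2 called 1, 4, 10 and 36. Without a filter there were 1 at 7 d and 14 at 28 d, with reads required in 75% of columns 1 and 2, and without the block 0 at 28 d. Leaving out animals gave 0 to 1 at 7 d (1 without animal 150) and 5 to 11 at 28 d (5 without animal 155). The Akkermansia variant was called in none of the count fits run. Removing the block changed no other call. Depth limits levels under about 0.01%, where columns hold few reads, and the 13 animals, sham and CCI pooled, limit every comparison.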

Other observations

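All 9 variants that edgeR called at 28 d against pre-injury belonged to Firmicutes, as did 89.8% of the 323 variants tested. Of the 8 with a higher fitted level, 7 were Lachnospiraceae, a family of fiber-fermenting anaerobes that made up 48.3% of the variants tested. No enrichment was tested. The smallest adjusted p was that of a Lachnoclostridium variant, with a log2 fold change of 7.21 ± 1.504 (SE, edgeR adjusted p = 0.00651), 0 reads in 8 of 13 pre-injury columns and in 5 at 28 d. A Staphylococcus variant, of a genus best known from skin, had a log2 fold change of 5.96 ± 1.41 (edgeR adjusted p = 0.0102) and went from 0 reads in 10 columns to 0 reads in 2, at a median of 0.0266% at 28 d. Higher fold changes did not mean that all levels were higher. The highest level of the Lachnoclostridium variant was 2.60% before surgery and 0.820% at 28 d, and the highest level was also lower at 28 d in 5 of the other Lachnospiraceae variants called higher, of which 2 had a median of 0 at both collections. Such fold changes of variants that were mostly at 0 before surgery depend on the prior count of the fit and are no bounds. The 1 variant with a lower fitted level, Colidextribacter, had a log2 fold change of -3.23 ± 0.77 (SE, edgeR adjusted p = 0.0102). Its median was 0.567% before surgery and 0.170% at 28 d, with 0 reads in 0 and 5 columns. None of the 9 was called without the animal as a block, and 5 to 11 variants were called at 28 d with 1 animal left out.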
